A study of Mus musculus with 23 samples.

Results

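Immune checkpoint genes encode the ligands, enzymes and receptors that restrain T cells, and 10 of them were followed through the 47643 genes and 23 libraries of the expression table. They were chosen by gene symbol and are reported in 3 groups. The ligands and enzymes, which tumor cells can make themselves, were Cd274 (PD-L1), Pdcd1lg2 (PD-L2), Lgals9 (galectin-9, a ligand of TIM-3) and Ido1 (an enzyme that degrades tryptophan). Vsir (VISTA) acts both as a ligand and as a receptor. The receptors of lymphocytes were Pdcd1 (PD-1), Ctla4, Lag3, Havcr2 (TIM-3) and Tigit. A transcript of such a gene in a tumor can come from the tumor cell or from a leukocyte, which is why sorted and cultured tumor cells were set beside whole tumors.

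When PD-1 on a T cell binds PD-L1, signaling through the antigen receptor is dampened, and antibodies against PD-1 or PD-L1 block this contact. The best known inducer of PD-L1 in tumor cells is IFN-γ, which is released by T cells and NK cells and acts through JAK kinases and the transcription factor IRF1. PD-1, CTLA-4, LAG-3, TIM-3 and TIGIT appear on T cells after activation and are held at high levels on exhausted T cells. Myeloid cells also carry TIM-3 and VISTA.

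All libraries came from the mouse melanoma line B16F10. Whole tumors (bulk tumors), tumor cells purified from tumors by magnetic depletion of stromal cells, and cultured cells were each sequenced as wild-type control and after editing of Nr2f6, the gene of a nuclear receptor, with the guide sg492 or the guide sg495, with 2 libraries in each of these 9 groups. The edited cells were transfected with Cas9 protein and a dye-labeled guide and sorted for the dye. The study checked the knockout by immunoblot and by sequencing of the targeted regions. Its methods describe no isolation of single edited clones, so that unedited cells may remain among them. A further 2 libraries are labelled wild type with IgG control and 3 wild type with anti-PD1, and their labels name no sample type. The age of the mice is not given in the labels, nothing in them says that 2 libraries of a group came from different animals or cultures, and p-values therefore measure the spread between these libraries, which may be technical. Values are TPM, a relative transcript abundance in which reads are scaled for gene length and library, so that levels can be set side by side between genes. TPM carry no total count, and the methods of the study give the sequencing depth as a range over libraries, so that the depth of each single library is not known here.

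Nr2f6, which shares 5239 bases with Ocel1 on the opposite strand, checked the labels. Bulk tumors had 25.83 and 25.24 TPM in control, which compared with 17.22 and 15.76 TPM under sg495. For sorted tumor cells the control values were 20.32 and 17.73 TPM and those under sg495 10.6 and 12.18 TPM, and for cultured cells 31.88 and 32.9 TPM and 18.55 and 22.43 TPM. The sg495 values were thus the lower ones in each sample type. In the sorted libraries labelled sg492 it had 19.84 and 25.7 TPM, so that Nr2f6 was no lower there than in control, and these 2 libraries are named by their label throughout. The other sg492 libraries held 22.31 and 23.31 TPM (bulk tumors) or 26.55 and 31.5 TPM (cultured cells).

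The sample types were checked by markers of other cells. Ptprc, which encodes the leukocyte antigen CD45, was listed at 0 in all 6 cultured libraries and had at most 0.15 TPM in the 6 sorted libraries, against 5.74 to 26.21 TPM in bulk tumors. Cd3e, a CD3 chain of T cells, was listed at 0 in all 12 sorted and cultured libraries. Adgre1, the macrophage antigen F4/80, was listed at 0 in these 12 except for 0.02 TPM in sg495 sorted replicate 1. Pmel, a melanocyte pigment gene, lay between 2531 and 3972 TPM in the 18 libraries of the 3 sample types. The 5 IgG and anti-PD1 libraries stood apart, with 86.68 to 272.52 TPM of Ptprc and 312.61 to 1065.82 TPM of Pmel. These 5 were tested against each other and not against the 18.

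Cd274 (ENSMUSG00000016496) lies on chromosome 19 of GRCm38 from 29367455 to 29388095 on the plus strand, and Pdcd1lg2 (ENSMUSG00000016498) follows it on the same strand from 29410919 to 29471161, with 22823 bases between them. Promoter windows of 300 bases were available from RefSeq (GRCm38.p6) for 8 of the 10 members. They were searched on both strands for 2 elements of interferon signaling, the GAS element TTCNNNGAA of the IFN-γ response and the ISRE-like element (the letters GAAA, any 2 bases and GAAA again) bound by interferon regulatory factors. Of the 32851 promoter windows of the table, 8.3% held the first and 3.44% the second. The windows of Cd274, Pdcd1lg2, Vsir, Pdcd1, Ctla4, Havcr2 and Tigit held neither, and that of Lgals9 held the second at 2 places. No match says no more than that these letters are not in this window. The bases before the annotated start are shown for the ligands that tumor cells expressed, Cd274 at chr19:29367188-29367437 on the plus strand and Lgals9 at chr11:78984925-78985174 on the minus strand. Capitals mark a match of the second element, read here on its other strand as TTTC, any 2 bases and TTTC, and the Cd274 sequence has none.
Cd274: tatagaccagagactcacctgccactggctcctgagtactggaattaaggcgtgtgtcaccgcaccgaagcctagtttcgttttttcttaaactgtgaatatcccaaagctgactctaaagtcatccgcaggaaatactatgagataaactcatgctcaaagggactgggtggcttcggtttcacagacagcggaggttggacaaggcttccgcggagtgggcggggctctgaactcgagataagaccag
Lgals9: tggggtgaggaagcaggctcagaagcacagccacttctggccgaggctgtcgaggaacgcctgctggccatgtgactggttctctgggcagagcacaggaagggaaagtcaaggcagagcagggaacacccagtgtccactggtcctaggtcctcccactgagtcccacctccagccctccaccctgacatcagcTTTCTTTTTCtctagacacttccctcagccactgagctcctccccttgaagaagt
The match in capitals begins 55 bases before the start of Lgals9, and the other match, TTTCTGTTTC, begins 15 bases after it. Irf1 and Irf9, list genes described with Cd274 in sorted tumor cells, have 2 windows each. In 1 of those of Irf1 the GAS match TTCCCCGAA begins 90 bases before the start, and the other window of Irf1 and both of Irf9 held neither element.

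Where each transcript was found was read first. In cultured cells, 3 of the 10 members reached 1 TPM: Lgals9 with 20.39 to 32.27 TPM (median 26.24), Havcr2 with 3.37 to 6.17 TPM (median 4.65) and Cd274 with 1.66 to 2.42 TPM (median 1.905). These 3 ranges did not overlap. The leukocyte transcripts Ptprc and Cd3e were listed at 0 in the same 6 libraries, in which Havcr2, known as a receptor of T cells and myeloid cells, had its 3.37 TPM or more. Lag3 stayed between 0.07 and 0.36 TPM, and Vsir, Pdcd1, Ctla4 and Ido1 were listed at 0 in all 6.

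Sorted tumor cells held the same 3 transcripts above 1 TPM. Lgals9 had 52.99 to 68.11 TPM (median 60.805), Cd274 4.64 to 24.85 TPM (median 6.24) and Havcr2 3.25 to 5.25 TPM (median 4.19). The ranges of Cd274 and Havcr2 overlapped, so their order is not fixed. Pdcd1lg2 reached 0.1 TPM, Vsir 0.17 TPM, Tigit 0.23 TPM, Pdcd1 0.08 TPM and Lag3 0.74 TPM at most, and Ctla4 and Ido1 were listed at 0 in all 6 libraries. Cd274 and Pdcd1lg2, neighbours on the chromosome and both ligands of PD-1, thus differed in tumor cells, with Pdcd1lg2 listed at 0 in 5 of the 6 sorted libraries.

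In bulk tumors 9 of the 10 members had a mean of at least 1 TPM. Lgals9 was the highest with 73.87 to 115.93 TPM (median 103.385). Cd274 with 3.71 to 15.05 TPM, Vsir with 4.27 to 12.3 TPM and Havcr2 with 5.31 to 10.37 TPM overlapped, and so did the next 5 below them. These were Pdcd1 with 0.48 to 2.94 TPM, Pdcd1lg2 with 0.43 to 2.58 TPM, Lag3 with 0.67 to 1.91 TPM, Ctla4 with 0.48 to 2.71 TPM and Tigit with 0.31 to 2.31 TPM. Ido1 did not pass 0.28 TPM in any bulk tumor. In whole tissue, fewer cells of a type and less RNA per cell cannot be told apart.

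**Figure D1:**
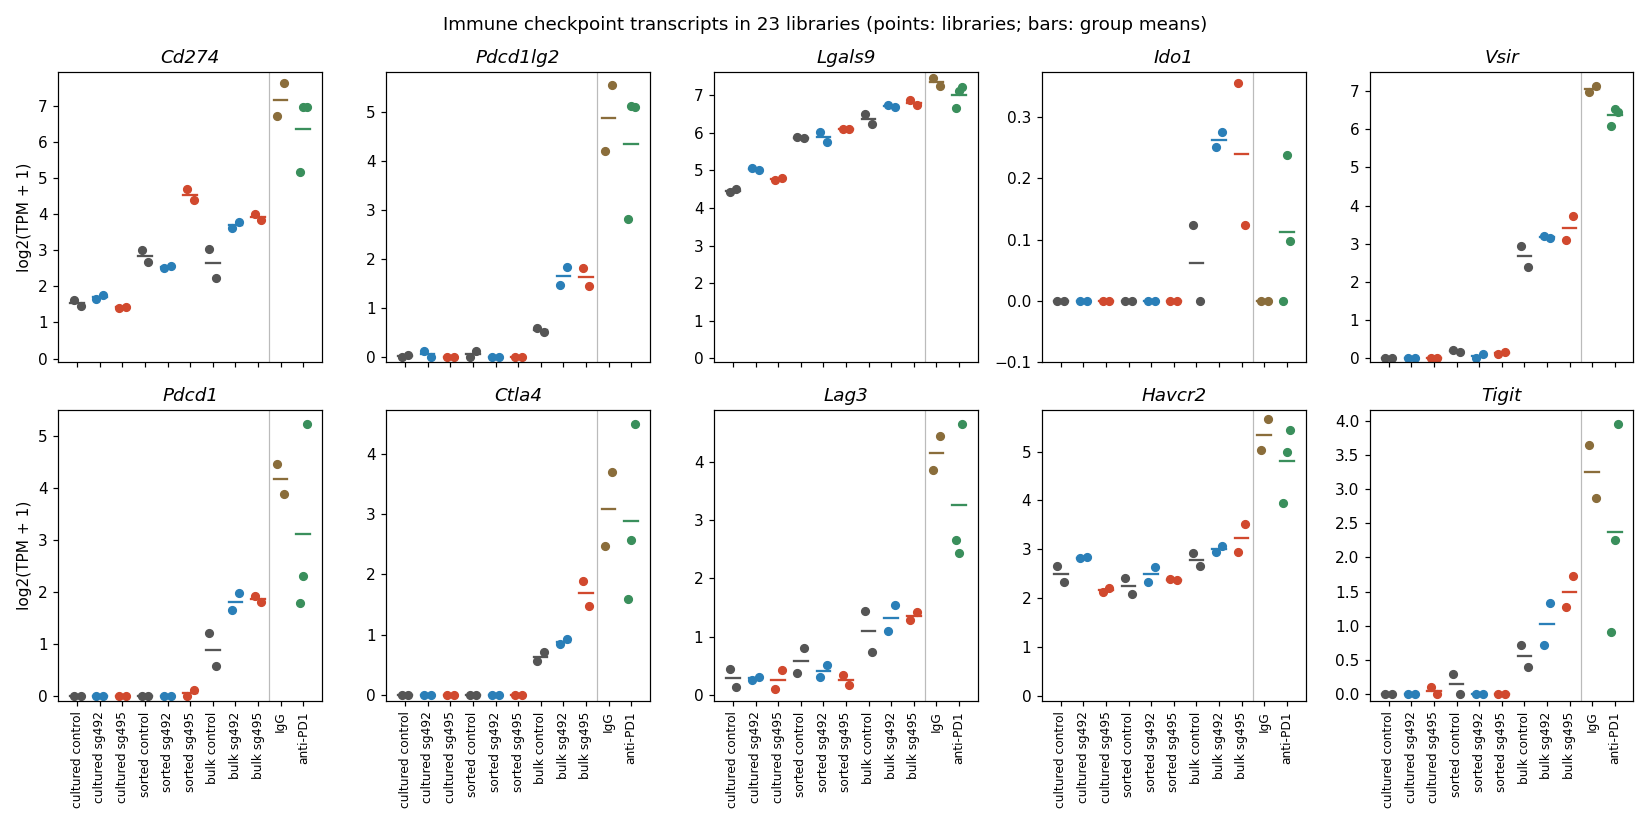
Expression of the 10 checkpoint transcripts as log2(TPM + 1), with one point per library and a bar at each group mean, for cultured cells, sorted tumor cells, bulk tumors and, right of the gray line, the IgG and anti-PD1 libraries. Each panel has its own vertical scale; Lgals9, Cd274 and Havcr2 are above 1 TPM in all sample types, whereas Vsir, Ctla4, Pdcd1 and Tigit lie at or near 0 in cultured and sorted cells.

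Sample types were compared over all guides, 6 libraries against 6, with limma on log2(TPM + 1) and Benjamini-Hochberg adjustment over the 13152 genes that averaged 1 TPM or more; calls needed an adjusted p under 0.05 together with a change of 1.5-fold or more. From cultured to sorted tumor cells, 2 of the 4 members tested were called higher, against 14.6% of all genes. Cd274 rose from 1.95 ± 0.302 to 11.1 ± 8.88 TPM (mean ± SD, n = 6), with a log2 fold change of 1.75 (standard error 0.125, limma adjusted p = 9.28e-08). Lgals9 rose from 26.4 ± 4.91 to 61.2 ± 6.21 TPM, with a log2 fold change of 1.20 (standard error 0.0537, limma adjusted p = 1.53e-09). For both, every sorted library was above every cultured library. The sg495 sorted libraries had 24.85 and 19.88 TPM of Cd274 and the other sorted libraries 4.64 to 7.1 TPM. Sorted cells, unlike cultured cells, had been through a collagenase digest and magnetic depletion. The part of that procedure in these values was not tested. Havcr2 had a log2 fold change of −0.13 with a 95% confidence interval from −0.37 to 0.11 and overlapping groups. Vsir, listed at 0 in all cultured libraries and at most 0.17 TPM in sorted cells, was not called, but with a pseudocount of 0.1 it was (0.92, limma adjusted p = 0.00587), against 17.6% of all genes called higher there.

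From sorted tumor cells to bulk tumors, Lgals9 rose by 0.67 on the log2 scale (standard error 0.0537, limma adjusted p = 4.42e-07) and Havcr2 by 0.64 (standard error 0.111, limma adjusted p = 0.000417). All 6 bulk libraries were above all 6 sorted libraries in both. Cd274 had a log2 fold change of 0.11 (95% confidence interval −0.16 to 0.39, limma adjusted p = 0.475) and overlapping groups. That value averages guides that went opposite ways. Under the sg492 label Cd274 had 11.17 and 12.86 TPM in bulk tumors and 4.64 and 4.93 TPM in sorted cells. The sg495 values were 15.05 and 13.27 TPM in bulk tumors and 24.85 and 19.88 TPM in sorted cells, and those of control overlapped. Of the members tested, 3 of 4 were called higher in bulk tumors, against 9.26% of all genes. The third was Vsir, which averaged 7.82 TPM in whole tumors against 0.0983 TPM after sorting; it passed the filter through bulk tumors alone and therefore had to differ. Without an expression filter, 8 of the 10 members were called higher in bulk tumors, against 7.01% of 27657 genes, and the other 2 were Cd274 and Ido1. Pdcd1lg2, Pdcd1, Ctla4 and Tigit averaged at most 0.0383 TPM in sorted cells and could hardly be lower in bulk tumors, so this count is a description. The call of Havcr2 was lost, on the fold threshold, without sg495 bulk replicate 2 (log2 fold change 0.55) or without control sorted replicate 2 (0.58), and under quantile normalization (0.42).

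The partners of these members were taken from lists written by hand. All gene lists were chosen with earlier results of these data known, so that their counts against all genes are a description. Among 11 genes of the PD-1 and CTLA-4 axis, 5 were tested between sample types, and 3 of them were called higher in sorted than in cultured cells, against 14.6% of all genes. The median log2 fold change was 0.76 over the 5 and −0.00246 over all genes. The 3 were Icosl, the ligand of ICOS (1.12, limma adjusted p = 4.1e-07), Cd276, the checkpoint ligand B7-H3 (1.05, 3.99e-08), and Tnfrsf14, the ligand of BTLA (0.76, 0.00125). Tnfrsf14 had at most 0.21 TPM in cultured cells and 1.57 TPM in sorted cells. It passed the filter through bulk tumors, so that this count and median are a description. Of 18 partners of TIGIT, LAG-3 and TIM-3, 12 were tested and 4 were called higher, against the same 14.6%, among them Pvr, the ligand of TIGIT (1.10, limma adjusted p = 1.12e-07), Lgals3, a ligand of LAG-3 (1.39, 2.14e-06), and H2-T23, the Qa-1 molecule bound by the inhibitory receptor NKG2A (2.29, 1.82e-06). Lower calls covered 8.99% of all genes, and none of the 17 partners tested was among them. The costimulatory list had Tnfrsf9, the receptor 4-1BB, higher (3.12, limma adjusted p = 2.64e-09) and its ligand Tnfsf9 lower (−1.12, 4.24e-07).

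Whether the loss of Nr2f6 changed tumor cell ligands was asked in sorted cells. Cd274 had 24.85 and 19.88 TPM with sg495, 7.1 and 5.38 TPM in control, and 4.64 and 4.93 TPM in the libraries labelled sg492. Both sg495 libraries stood far above the other 4, and the libraries labelled sg492 lay below both controls. Against control the log2 fold change with sg495 was 1.69 (standard error 0.177, 95% confidence interval 1.26 to 2.12, limma adjusted p = 0.0182), a ratio of means of 3.58. It was the 1 member called of 3 tested, against 0.605% of 12899 genes called higher.

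The log2 fold change of Cd274 with any 1 of the 6 sorted libraries left out was between 1.52 and 1.87, but the adjusted p then lay between 0.0581 and 0.134. Left out in turn, the adjusted p was 0.0671 without control replicate 1, 0.133 without control replicate 2, 0.0632 and 0.0581 without replicates 1 and 2 labelled sg492, and 0.134 and 0.111 without sg495 replicates 1 and 2. The call was also lost without an expression filter (adjusted p = 0.0809 over 23447 genes). It held in the fits with a pseudocount of 0.1, a filter at 5 TPM, both other scalings, no trend, 2 groups or all 18 libraries. With 2 libraries against 2, an exact permutation test cannot give a 2-sided p below 0.333, so each call rests on the spread shared across genes.

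Of the leukocyte markers, Ptprc, Cd3e and Adgre1 were at or near 0 in the sorted libraries, and others were not. Over Ptprc, Laptm5 and Coro1a, the summed level was 2.4 and 2.19 TPM with sg495, 1.84 and 1.38 TPM in control, and 3.44 and 3.09 TPM in the libraries labelled sg492, and Coro1a was the most abundant in 5 of these 6 libraries. Over 14 T cell genes it was 6.92 and 6.89 TPM with sg495 and 5.57 and 3.78 TPM in control, of which Lck alone had 4.15, 5.82, 5.02 and 2.97 TPM, and Cd3e was listed at 0. Over 8 macrophage genes it was 7.55 and 12.77 TPM with sg495 and 5.44 and 3.96 TPM in control, mostly from Cd68, which was also found in the cultured cells. The T cell and macrophage sums of both sg495 libraries were above both controls, and their part in the Cd274 values was not tested. Cd274 had 24.85 and 19.88 TPM in these sg495 libraries and 15.05 and 13.27 TPM in sg495 bulk tumors, and what leukocytes add to either level was not tested.

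The other members tested were not called in sorted cells. Lgals9 had 68.11 and 67.57 TPM with sg495 and 57.96 and 56.64 TPM in control, without overlap, and a log2 fold change of 0.24 (95% confidence interval −0.01 to 0.49, limma adjusted p = 0.339). Havcr2 had 4.24 and 4.14 TPM with sg495 and 4.33 and 3.25 TPM in control, with overlap (log2 fold change 0.12, 95% confidence interval −0.38 to 0.63). With the libraries labelled sg492, the 3 log2 fold changes were −0.31 for Cd274 (95% confidence interval −0.75 to 0.12), 0.02 for Lgals9 (−0.23 to 0.27) and 0.23 for Havcr2 (−0.27 to 0.74). None of the 3 was called, against 0.0388% of all genes. Leaving out 1 library gave −0.49 to −0.14 for Cd274 and 0.070 to 0.40 for Havcr2.

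In the same sorted cells, Irf1, Irf9 and Stat3 of the IFN-γ signaling list rose beside Cd274. Of the 18 genes of that list 16 were tested, 9 were above 0 and 3 were called higher, against 0.605% of all genes, with a median log2 fold change of 0.35 over the 16 and −0.04 over all genes. The list was chosen with earlier results of these data known, so these counts are a description. Irf1, a transcription factor that acts on Cd274, had 73.34 and 53.74 TPM with sg495 and 6.4 and 2.91 TPM in control (log2 fold change 3.57, limma adjusted p = 0.0167). Irf9, an interferon regulatory factor, rose by 1.55 (limma adjusted p = 0.0392) and Stat3 by 0.94 (0.0465). The calls of Irf9 and Stat3 were lost with any 1 library left out (adjusted p from 0.0956 to 0.281 and from 0.0955 to 0.364), and that of Irf1 without either sg495 library (0.135 and 0.121), without control replicate 2 (0.0717) or without replicate 1 labelled sg492 (0.0516). Without the expression filter, none of the 3 passed (adjusted p from 0.0809 to 0.117), and none did with eBayes without a trend (0.0593 for Irf1, 0.0923 for Irf9 and 0.118 for Stat3). Irf9 and Stat3 were also lost in the fit of the 2 groups alone (0.0784 and 0.0785). Stat3 was lost, too, with a pseudocount of 0.1 (0.0514) and with a replicate block (0.101).

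Ifng, the cytokine itself, was listed at 0 in both sg495 sorted libraries and in all 6 cultured libraries. Jak2, Ifngr1 and Cmtm6, which encode the kinase, a receptor chain and a stabilizer of PD-L1 protein, had 12.54 and 12.8, 13.13 and 12.47, and 12.28 and 13.87 TPM with sg495, and none was called. Both sg495 values of Ifngr1 lay below both controls. Irf1 had 12.34 and 7.47 TPM in the libraries labelled sg492, above both controls (log2 fold change 0.98, limma adjusted p = 0.656). Of the other lists, the exhaustion regulators held 1 call among 8 tested genes, with 0.605% of all genes called higher. It was Tcf7, the T cell transcription factor TCF-1, which had 11.45 and 10.88 TPM with sg495 and 5.14 and 4.98 TPM in control (log2 fold change 1.01, limma adjusted p = 0.0446, lost with any 1 library left out, with adjusted p from 0.0785 to 0.362, and in 6 of the settings that keep every library, with adjusted p from 0.0509 to 0.126). The 4 lists of partners, costimulatory genes and other inhibitory genes held no call. H2-T23 had 34.13 and 34.99 TPM with sg495 against 5.12 and 6.29 TPM in control, without overlap (log2 fold change 2.41, limma adjusted p = 0.0663).

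**Figure D2:**
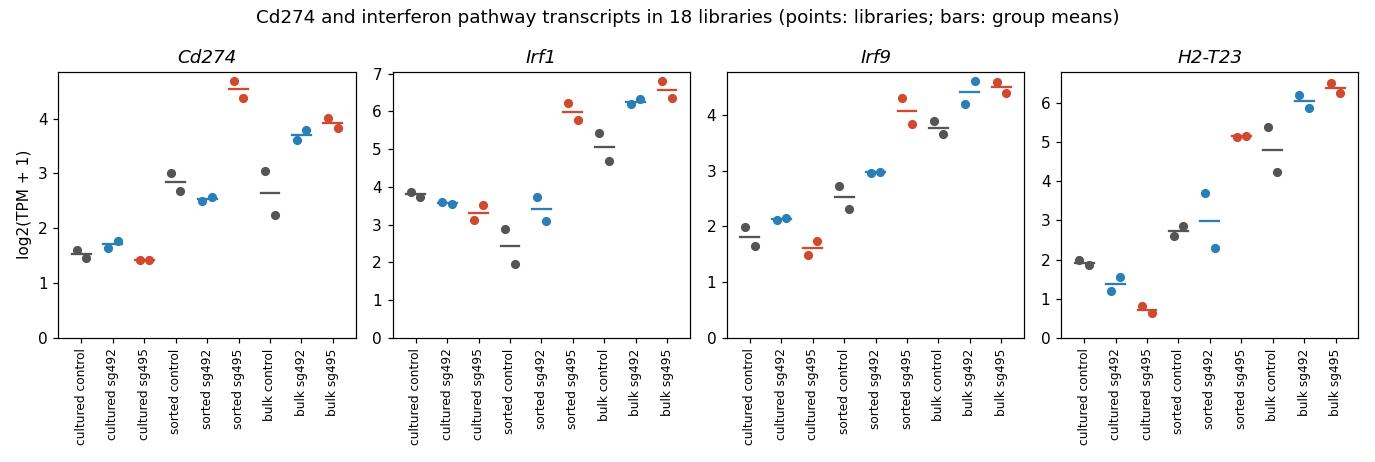
Expression of Cd274, Irf1, Irf9 and H2-T23 as log2(TPM + 1) in the 18 libraries of cultured cells, sorted tumor cells and bulk tumors, with one point per library and a bar at each group mean. In sorted tumor cells both sg495 points of each gene lie above the control and sg492 points, and in cultured cells they lie below both controls for Cd274, Irf1 and H2-T23 and overlap them for Irf9.

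In cultured cells Cd274 showed no such change. Control cells had 2.05 and 1.76 TPM, sg492 cells 2.13 and 2.42 TPM and sg495 cells 1.66 and 1.68 TPM. The sg495 libraries were the lowest and the sg492 libraries the highest, and neither guide overlapped control. The log2 fold changes were −0.12 with sg495 (95% confidence interval −0.50 to 0.26, limma adjusted p = 0.665) and 0.17 with sg492 (−0.20 to 0.55, limma adjusted p = 0.72). The first came to −0.048 and −0.19 without control replicates 1 and 2. The second came to 0.10 without control replicate 2 and to 0.11 without sg492 replicate 2.

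Lgals9 had 25.75 and 26.73 TPM with sg495 and 32.27 and 31.45 TPM with sg492, against 20.39 and 21.53 TPM in control. All 4 edited libraries were above both controls. With sg495 the log2 fold change was 0.31 (standard error 0.0600, limma adjusted p = 0.0265), which stayed below the fold threshold; with sg492 it was 0.58 (standard error 0.0600, limma adjusted p = 0.0703). Havcr2 had 3.37 and 3.65 TPM with sg495, below both controls with 5.27 and 4.03 TPM, and 6.05 and 6.17 TPM with sg492, above them. Its log2 fold changes of −0.32 (95% confidence interval −0.66 to 0.02) and 0.34 (0.0011 to 0.68) had adjusted p of 0.206 and 0.473 in limma. The first came to −0.16 and −0.48 without control replicates 1 and 2, and the second to 0.18 without control replicate 2. None of the 3 members tested was called for either guide, against 2.77% of 12007 genes with sg495 and 0.05% with sg492.

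Among the list genes of cultured cells, 4 were called lower with sg495, against 2.03% of all genes, and none higher. Tnfrsf9 had 1.6 and 1.52 TPM with sg495 and 5.26 and 5.03 TPM in control (log2 fold change −1.26, limma adjusted p = 0.00387). Cd276 had 5.1 and 5 TPM against 12.22 and 10.82 TPM (−1.05, 0.00663), and H2-T23 had 0.75 and 0.55 TPM against 2.97 and 2.61 TPM (−1.20, 0.017). Batf, a transcription factor of activated T cells, fell by 0.66 (limma adjusted p = 0.0456). With single libraries left out, Tnfrsf9 kept its call (adjusted p from 0.0133 to 0.0398), Cd276 lost it without control replicate 1 (0.0538) or sg495 replicate 1 (0.0535), H2-T23 lost it without any 1 of the 4 control and sg495 libraries (0.0734 to 0.0916), and Batf lost it in all 6 fits (0.0604 to 0.178). Of the settings that keep every library, H2-T23 lost its call in the fit of all 18 libraries (0.109), and Batf in 6 settings (0.0534 to 0.137), among them both other scalings and no expression filter. Of the 14 interferon list genes tested none was called; Irf1 had 7.69 and 10.44 TPM with sg495 and 13.64 and 12.27 TPM in control.

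The sg495 effect on Cd274 differed between sorted and cultured cells. In a fit of all 18 libraries the difference of the 2 log2 fold changes was 1.81 (standard error 0.307, 95% confidence interval 1.15 to 2.48, limma adjusted p = 0.00809). Of the 4 members tested it was the 1 called higher, against 1.86% of 13152 genes. The call held in the 8 other settings that keep every library (1.76 to 2.01, adjusted p from 0.0064 to 0.0271) and with each of the 18 libraries left out in turn (1.64 to 1.98, adjusted p from 0.00091 to 0.0382). Lgals9 had a difference of −0.07 (95% confidence interval −0.36 to 0.21) and Havcr2 of 0.44 (−0.15 to 1.03).

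The lists were chosen with earlier results of these data known, so their counts are a description. In them, 8 of 53 genes tested had a called difference of the same sign, against 1.86% of all genes. From the interferon list these were Irf1 (4.05, limma adjusted p = 0.000745), Irf9 (1.75, 0.0067), Stat2 (1.06, 0.04) and Stat3 (1.00, 0.0212), 4 of 17 tested. The other 4 were H2-T23 (3.61, limma adjusted p = 0.00497), Tnfrsf9 (2.38, 0.00481), Batf (0.87, 0.0311) and Cd276 (0.74, 0.0311). All of these 4 were called lower in cultured cells and none was called in sorted cells, where H2-T23 and Tnfrsf9 were above both controls (log2 fold changes 2.41 and 1.12, limma adjusted p = 0.0663 and 0.228) and Cd276 had 17.2 and 16.5 TPM with sg495 and 21.99 and 20.3 TPM in control. With single libraries left out, the calls of Irf1, Irf9, H2-T23 and Tnfrsf9 held in all 18 fits, and those of Stat3, Cd276, Batf and Stat2 were lost in 5, 8, 8 and 11 of them.

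**Figure D3:**
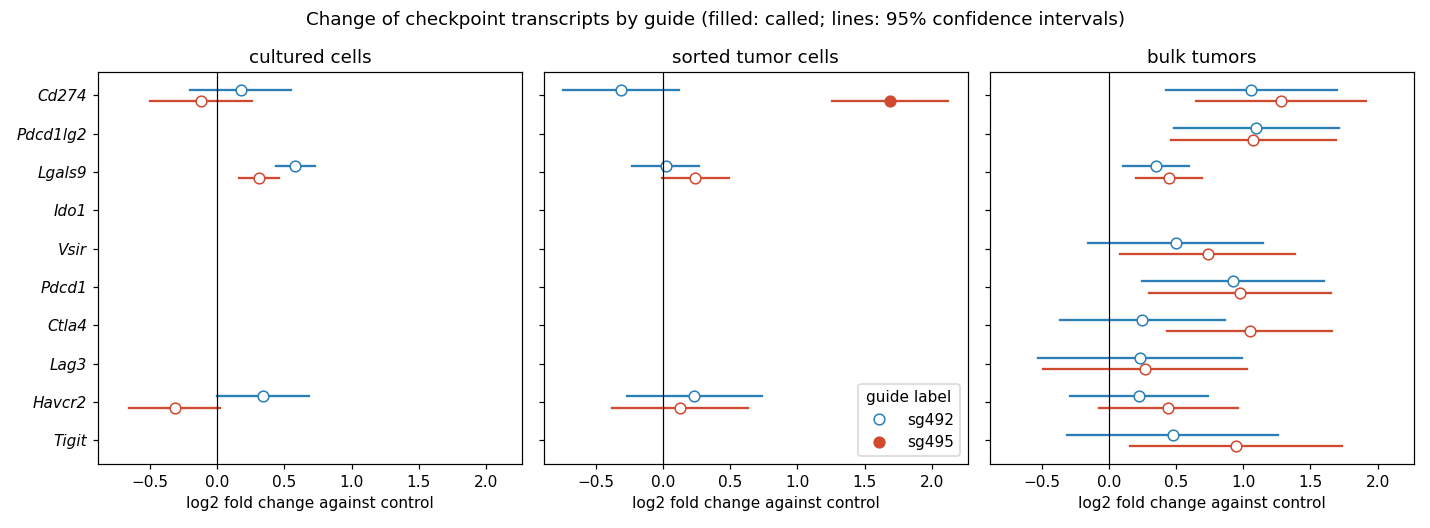
Log2 fold change of each tested member against control for sg492 and sg495 in cultured cells, sorted tumor cells and bulk tumors, with lines for 95% confidence intervals and filled points for calls; members with no point had a mean below 1 TPM. The filled point is Cd274 with sg495 in sorted tumor cells, at 1.69.

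In bulk tumors no member was called with either guide. Cd274 had 15.05 and 13.27 TPM with sg495, 11.17 and 12.86 TPM with sg492 and 7.24 and 3.71 TPM in control, so that all 4 edited tumors were above both controls. The log2 fold change was 1.28 with sg495 (95% confidence interval 0.64 to 1.92, limma adjusted p = 0.105) and 1.06 with sg492 (0.42 to 1.70, limma adjusted p = 0.494). With sg495 Cd274 was called without control replicate 1 (1.68, adjusted p = 0.0235) and in the fit of all 18 libraries (1.28, adjusted p = 0.007). With sg492 the value fell to 0.66 without control replicate 2 (adjusted p = 0.709).

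Pdcd1lg2 had 2.53 and 1.73 TPM with sg495, 1.78 and 2.58 TPM with sg492 and 0.52 and 0.43 TPM in control, without overlap. Its log2 fold changes were 1.07 (limma adjusted p = 0.124) and 1.10 (limma adjusted p = 0.481). Lgals9 had 115.93 and 105.52 TPM with sg495, 105.13 and 101.64 TPM with sg492 and 88.66 and 73.87 TPM in control, again without overlap. Its log2 fold changes were 0.45 (limma adjusted p = 0.12) and 0.35 (limma adjusted p = 0.5), the second of which came to 0.22 without control replicate 2.

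Vsir had 7.51 and 12.3 TPM with sg495, 8.19 and 7.86 TPM with sg492 and 6.76 and 4.27 TPM in control, also without overlap. Its log2 fold changes were 0.73 (limma adjusted p = 0.264) and 0.50 (limma adjusted p = 0.667). The first came to 0.46 without control replicate 2 and to 0.41 without sg495 replicate 2, and the second to 0.78 and 0.22 without control replicates 1 and 2. Ido1 had 0.28 and 0.09 TPM with sg495, 0.19 and 0.21 TPM with sg492 and 0.09 and 0 TPM in control, too low to be tested.

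Among the receptors, Pdcd1 had 2.78 and 2.5 TPM with sg495, 2.12 and 2.94 TPM with sg492 and 1.3 and 0.48 TPM in control. Ctla4 had 2.71 and 1.78 TPM with sg495, 0.8 and 0.89 TPM with sg492 and 0.48 and 0.63 TPM in control. The 4 edited tumors were above both controls for each of these receptors, and the sg495 tumors had more Ctla4 than the sg492 tumors, a difference that was not tested. Tigit had 1.41 and 2.31 TPM with sg495, 0.65 and 1.52 TPM with sg492 and 0.64 and 0.31 TPM in control. Havcr2 had 6.73 and 10.37 TPM with sg495, 6.74 and 7.4 TPM with sg492 and 6.56 and 5.31 TPM in control. The lower sg492 value of Tigit and of Havcr2 lay just above the higher control. Lag3 had 1.45 and 1.68 TPM with sg495, 1.15 and 1.91 TPM with sg492 and 1.71 and 0.67 TPM in control, and overlapped. The log2 fold changes with sg495 were 0.98 for Pdcd1, 1.05 for Ctla4, 0.95 for Tigit, 0.44 for Havcr2 and 0.27 for Lag3, with limma adjusted p from 0.127 to 0.733. With sg492 they were 0.93 for Pdcd1, 0.25 for Ctla4, 0.48 for Tigit, 0.22 for Havcr2 and 0.23 for Lag3, with limma adjusted p from 0.506 to 0.849. Havcr2 with sg495 came to 0.72 and 0.16 without sg495 replicates 1 and 2. With sg492, single libraries left out gave 0.61 to 1.24 for Pdcd1, 0.17 to 0.78 for Tigit and 0.093 to 0.35 for Havcr2, where leaving out control replicate 2 gave the lowest value of Pdcd1 and Havcr2 and leaving out sg492 replicate 2 that of Tigit.

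With sg495, 8 of the 10 members had both edited tumors above both controls, against 31.6% of the 13639 genes tested, and with sg492 9 of 10, against 31.1%. The 9 include Ido1, which was too low to be tested (means of 0.2 TPM with sg492 and 0.045 TPM in control), whereas both shares cover tested genes only. In limma none of the 9 members tested was called with sg495, against 0.0293% of all genes, and 7 of them, and 2135 of all genes, had an unadjusted p below 0.05. None was called with sg492 either, against 0% of all genes, and 4 of them, and 1132 of all genes, had an unadjusted p below 0.05. Pdcd1, Pdcd1lg2, Ctla4 and Tigit had control means below 1 TPM and passed the filter through the edited tumors, so all of these counts of members are a description.

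Marker sums of other cell types differed with the guides in the same tumors, and their part in these values was not tested. The summed level of Ptprc, Laptm5 and Coro1a was 62.61 and 47.26 TPM in control tumors, 86.55 and 90.66 TPM in sg492 tumors and 105.29 and 137.7 TPM in sg495 tumors, with Laptm5 the most abundant. Over 14 T cell genes it was 42.94 and 21.69 TPM in control tumors, 36.69 and 41.02 TPM in sg492 tumors and 58.21 and 82.51 TPM in sg495 tumors, most often led by Trbc2. Over 8 macrophage genes, led by C1qb, it was 368.56 and 242.19 TPM, 391.85 and 477.82 TPM, and 538.01 and 562.4 TPM. The leukocyte and macrophage sums of all 4 edited tumors were above both controls, whereas the T cell sums of the sg492 tumors lay between the controls. Over 8 dendritic cell genes, most often led by Itgax, control tumors had a sum of 12.77 and 10.02 TPM, sg492 tumors one of 18.54 and 19.37 TPM and sg495 tumors one of 27.54 and 25.54 TPM. Fibroblast genes, too, had all 4 edited tumors above both controls. Their 6 genes, led by Col3a1, summed to 313.81 and 273.08 TPM without editing, to 363.92 and 440.96 TPM under sg492 and to 426.77 and 758.4 TPM under sg495. The 5 NK cell genes, led by Klrk1, summed to 5.0 and 3.23 TPM in control tumors, 9.41 and 9.18 TPM in sg492 tumors and 13.66 and 16.63 TPM in sg495 tumors, and Klrk1, the 1 tested, had log2 fold changes of 1.41 with sg495 and 1.10 with sg492. The B cell gene tested, Cd79a, had a log2 fold change of −0.37 with sg495, and 3 of 7 melanocyte genes were above 0. None of these marker genes was called, with 6 of 6 dendritic cell genes, 6 of 6 fibroblast genes, 13 of 13 T cell genes, 8 of 8 macrophage genes and 3 of 3 leukocyte genes above 0 on the log2 scale for sg495. Cd3d, Cd4 and Zap70 among the T cell genes and Clec9a, Siglech and Cd209a among the dendritic cell genes had control means below 1 TPM and passed the filter through the edited tumors, so these counts are a description.

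The 5 receptors were also set against the 3 CD3 chains in each library, as a description. Their summed TPM per summed TPM of Cd3d, Cd3e and Cd3g was 1.27 and 1.76 in control tumors, 2.0 and 2.32 with sg492 and 1.82 and 1.41 with sg495. Without Havcr2, which tumor cells also expressed, the ratio was 0.489 and 0.496 in control, 0.824 and 1.15 with sg492 and 1.01 and 0.626 with sg495. All 4 edited tumors were above both controls on the second ratio and not on the first, which was the one planned. Lag3, which averaged 0.348 TPM in sorted tumor cells, was kept in both ratios.

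The sg495 effect on Cd274 in bulk tumors minus that in sorted cells was −0.41 (95% confidence interval −1.08 to 0.26, limma adjusted p = 0.564). It came to −0.0084 and −0.82 without bulk control replicates 1 and 2, to −0.24 without sorted control replicate 2 and to −0.26 without sg495 sorted replicate 1. None of the 4 members tested was called, against 0.122% of 13152 genes, and Cd274 had an unadjusted p of 0.204. Without an expression filter Pdcd1lg2 (1.14, limma adjusted p = 0.0202) and Ctla4 (1.05, 0.0111) were called, against 0.47% of 27657 genes. Both were at or near 0 in sorted cells of either genotype. Of the interferon list Ifngr1, a chain of the IFN-γ receptor, was called (0.77, limma adjusted p = 0.0365), with 30.35 and 30.2 TPM in sg495 bulk tumors against 21.49 and 23.56 TPM in control, and 13.13 and 12.47 TPM in sg495 sorted cells against 16.55 and 16.69 TPM. That call was lost with 13 of the 18 libraries left out singly (highest adjusted p 0.155).

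No gene of the 6 lists was called in bulk tumors for either guide, against 0.0293% of all genes with sg495 and 0% with sg492. In the interferon list 15 of 17 genes tested were above 0 with sg495, with a median of 0.48 on the log2 scale against 0.06 over all genes. Cxcl9, a chemokine for T cells, had 46.73 and 34.85 TPM with sg495 and 14.01 and 7 TPM in control (log2 fold change 1.92, limma adjusted p = 0.0865). The costimulatory list had 6 of 6 tested genes above 0 with a median of 0.79, led by Cd27 (1.43, limma adjusted p = 0.127). Cd27 had 0.56 and 0.27 TPM in control and passed the filter through the edited tumors, so that this count and median are a description. The partners of PD-1 and CTLA-4 had 5 of 6 above 0 with a median of 0.54, led by Tnfrsf14 (0.93, limma adjusted p = 0.249).

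In the libraries labelled IgG and anti-PD1 lay the highest level of 9 of the 10 members, the exception being Ido1, listed at 0 with IgG and at most 0.18 TPM with anti-PD1. Cd274 had 104.03 and 197.06 TPM with IgG and 34.91, 123.96 and 124.34 TPM with anti-PD1. Vsir had 125.65 and 140.75 TPM with IgG and 67.38, 91.9 and 86.96 TPM with anti-PD1, and Lgals9 had 175.74 and 151.37 TPM and 100.19, 136.98 and 147.55 TPM. Anti-PD1 replicate 1 was the lowest of the 5 for all 3 genes. For Vsir and Lgals9 all anti-PD1 libraries were below both IgG libraries, and for Cd274 the groups overlapped. How many of all genes were separated in this way was not counted. Neither Vsir nor Lgals9 was called (limma adjusted p = 0.608 and 0.618).

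Pdcd1, the target of the antibody, had 21.01 and 13.78 TPM with IgG and 2.43, 3.97 and 36.67 TPM with anti-PD1. Tigit had 11.57 and 6.29 TPM with IgG and 0.87, 3.79 and 14.53 TPM with anti-PD1, and Lag3 had 13.54 and 20.74 TPM and 5.32, 4.42 and 24.14 TPM. In each, anti-PD1 replicate 3 was above both IgG libraries and the other 2 were below them. Ctla4 ran from 2.01 to 21.66 TPM, Havcr2 from 14.4 to 42.62 TPM and Pdcd1lg2 from 6.09 to 33.55 TPM with anti-PD1, all overlapping IgG.

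In limma none of the 9 members tested was called, against 0% of 13418 genes. Vsir, at −0.70 on the log2 scale (limma adjusted p = 0.608), was the 1 member with an unadjusted p below 0.05, and 964 of all genes had one. The intervals were wide, from −2.18 to 0.57 for Cd274 around a log2 fold change of −0.81 and from −3.30 to 1.17 for Pdcd1 around −1.06. Single libraries moved both values. That of Cd274 was −1.26 and −0.35 without IgG replicates 1 and 2 and −0.20 without anti-PD1 replicate 1, and that of Pdcd1 was −0.40, −0.67 and −2.13 without anti-PD1 replicates 1, 2 and 3. No gene of the 6 lists was called, and the interferon list had 1 of 18 genes above 0, with a median of −0.52 against −0.04 over all genes.

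Markers differed widely between these 5 libraries, and their part in the values was not tested. The 14 T cell genes summed to 271.14 and 384.65 TPM with IgG and to 54.58, 88.25 and 566.36 TPM with anti-PD1, in the same order as Pdcd1 within anti-PD1 and in the opposite order within IgG. The 8 macrophage genes, led by C1qb, summed to 5384.05 and 4545.23 TPM with IgG and to 3508.07, 4419.65 and 3510.72 TPM with anti-PD1. The 7 melanocyte genes, led by Dct, summed to 3883.62 and 1662.86 TPM with IgG and to 5015.1, 4950.65 and 3288.19 TPM with anti-PD1. The receptors per CD3 transcript came to 1.23 and 1.02 with IgG and to 9.31, 2.65 and 1.14 with anti-PD1, and anti-PD1 replicate 1, with the highest ratio, had the lowest CD3 sum of 2.69 TPM. Without Havcr2 the ratio was 0.76 and 0.524 with IgG and 3.95, 0.943 and 0.795 with anti-PD1, so that all 3 anti-PD1 libraries were above both IgG libraries on this ratio and not on the other.

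**Figure D4:**
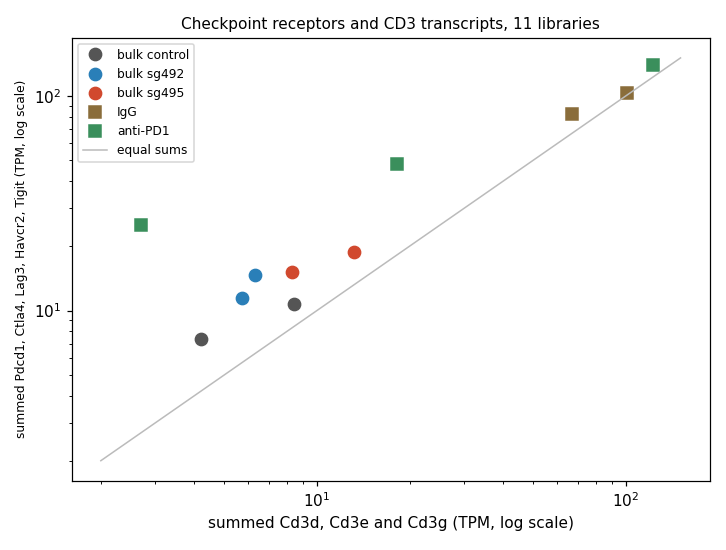
Summed TPM of Pdcd1, Ctla4, Lag3, Havcr2 and Tigit against summed TPM of Cd3d, Cd3e and Cd3g in the 6 bulk tumor libraries (circles) and the 5 IgG and anti-PD1 libraries (squares), both axes on a log scale, with a gray line where the sums are equal. Every library lies above the line, and anti-PD1 replicate 1 lies farthest from it, at a CD3 sum of 2.69 TPM.

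Finally, the genes whose levels ran most like those of Cd274 and Pdcd1 were found by Pearson's r on log2(TPM + 1). Over the 23 libraries and 13595 genes, those nearest to Cd274 were Trafd1 (0.980), Socs3, an inhibitor of JAK signaling (0.976), Rnf19b (0.972), Crlf2 (0.964) and Riok3 (0.963). Nearest to Pdcd1 were Sh2d2a (0.990), the T cell antigens Cd8a (0.987) and Cd6 (0.987), the perforin gene Prf1 (0.986) and Cd3d (0.985), with Tigit in sixth place (0.983). The libraries share their sample type, so these r mainly order genes by the difference between sample types. After the mean of each sample type was subtracted over 18 libraries, genes near to Cd274 were Olfr56 (0.968), Parp10 (0.966), the guanylate-binding protein gene Gbp4 (0.966) and the proteasome activator gene Psme2 (0.965). Olfr56 shares 20388 bases of chromosome 11 with Ifi47, an interferon-induced gene, on the same strand, so reads of the 2 genes may have been split. Among the members, Lgals9 (0.622) stood in place 589 of this order, Vsir (0.484) in place 1390 and Havcr2 (0.321) in place 2851 of 13152 genes.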

How the data were processed

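RNA was sequenced from 23 libraries of B16F10. The submitters' processing notes name cutadapt 2.3, STAR 2.7.0d, RSEM 1.3.1 and mm10, and the authors deposited TPM for 47643 genes to 2 decimals, adding up to between 999999 and 1000001 per library. The libraries were made with a directional kit, but whether the counting used strand is not given in the sources used here. Nr2f6, Cd274, Vsir and Pdcd1lg2 overlap genes on the opposite strand, and reads of such pairs could not be told apart if it did not. Counts were not used here, so limma stood in for the count test of the study.

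Log2(TPM + 1) was fitted with limma 3.58.1 (lmFit, eBayes with trend) in R 4.3.3, with 1 mean per group. Each guide was fitted within its sample type, anti-PD1 with IgG, and sample types and differences of effects over 18 libraries, in 11 comparisons. A gene was tested where its average over the libraries of a fit reached 1 TPM. Called means a 2-sided adjusted p (Benjamini-Hochberg) under 0.05 together with a change of 1.5-fold or more. Fold changes on this scale understate those of low genes.

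The members and all gene lists were chosen with earlier results of these data known. Named were the 10 members, Nr2f6, list genes that were called or among the 3 largest changes of a list, the leading and defining markers, and the 5 genes most like Cd274 and Pdcd1. Ifng, Jak2, Cmtm6 and, in comparisons where they were not called, Irf1, H2-T23, Cd276 and Ifngr1 were named after their values were seen. Some genes of these lists are not reported here and were left out of their counts. Gene positions came from GENCODE M21. The alternatives were other pseudocounts, filters, scalings, thresholds and fits, a replicate block and leaving out each library. The model was also run on simulated data, the outcome of which is not reported here. Figures were drawn with Python 3.11.15, pandas 2.3.3 and matplotlib 3.10.9.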

Additional observations from a re-analysis of the deposited data

Results flagged for a closer look

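Sample types differed in their response to sg495, by a test of the difference itself in limma, for 10 genes among the 4 members and 53 list genes tested. For sorted tumor cells minus cultured cells, with 1.86% of all genes called higher, the difference of log2 fold changes was 1.81 for Cd274 (adjusted p = 0.00809), 4.05 for Irf1 (0.000745), 3.61 for H2-T23 (0.00497), 2.38 for Tnfrsf9 (0.00481) and 1.75 for Irf9 (0.0067). The calls of these 5 genes held in every alternative run. It was 1.06 for Stat2 (adjusted p = 0.04 in limma), 1.00 for Stat3 (0.0212), 0.87 for Batf (0.0311) and 0.74 for Cd276 (0.0311), and these 4 lost the call without an expression filter and with single libraries left out, and Stat2, Batf and Cd276 also under quantile normalization. For bulk tumors minus sorted tumor cells, with 0.122% of all genes called, it was 0.77 for Ifngr1 (adjusted p = 0.0365 in limma), a call lost under both other scalings (0.69 and 0.71) and with a replicate block (adjusted p = 0.0601).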

How the results depend on the processing

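Of 977 alternative values over 55 results of a member in a comparison, 948 kept direction and side of the threshold, 10 lost the call, 8 gained it and 11 changed sign; the causes were not tested unless named. The number of members called moved from 0 to 1 for sg495 in bulk tumors in a fit of all 18 libraries (0 to 1 with single libraries left out), from 1 to 0 for sg495 in sorted tumor cells without an expression filter (0 in all fits with single libraries left out), and from 0 to 1 for sg495 in cultured cells with no fold threshold. Without an expression filter, which tests more genes, it moved from 3 to 8 for bulk tumors against sorted tumor cells and from 0 to 2 for the difference of sg495 effects between them. With a pseudocount of 0.1 it moved from 2 to 3 for sorted against cultured cells, by Vsir. Signs changed for these values. With single libraries left out, Lag3 in bulk tumors ran from −0.081 (without control replicate 2) to 0.62 with sg495 and from −0.12 (likewise) to 0.58 with sg492, and Havcr2 in sorted tumor cells with sg495 from −0.038 (without control replicate 2) to 0.29. Lgals9 in sorted cells labelled sg492 ran from −0.11 (without sg492 replicate 1) to 0.15. For anti-PD1 against IgG, Pdcd1lg2 ran from −1.19 to 0.24 and Ctla4 from −1.005 to 0.45, with values above 0 without IgG replicate 2 (0.15 and 0.41) or anti-PD1 replicate 1 (0.24 and 0.45). Cd274 in bulk against sorted cells came to −0.065 under quantile normalization and ran from −0.020 (without bulk control replicate 1) to 0.25 with single libraries left out, and the Lgals9 difference of effects to 0.0002381 under quantile normalization.

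Replicate numbers were not taken to pair the samples: same-numbered libraries had correlations of deviations from −0.126 to 0.0507 within the 3 sample types and of 0.0851 between IgG and anti-PD1. With a replicate block, 4 members were called lower for anti-PD1 against IgG, with 514 of all genes called; anti-PD1 replicate 3, the library above both IgG libraries for Pdcd1, Lag3 and Tigit, has no partner and carries no weight in that fit. The 4 were Cd274 (−1.11), Pdcd1 (−2.13), Lag3 (−1.60) and Tigit (−1.68). The crossed pairing in bulk tumors, chosen after seeing the data, called 0 members and 0 genes for either guide. Leaving out both sorted libraries labelled sg492, also chosen after seeing the data, left 3 members called higher in bulk than in sorted cells and 2 higher in sorted than in cultured cells.

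Over all genes, calls for sg495 in bulk tumors moved from 4 to between 0 and 395, for sg492 in bulk tumors from 0 to at most 66, for sg495 in sorted tumor cells from 116 to between 3 and 399, for the libraries labelled sg492 there from 5 to between 0 and 14, and for sg495 and sg492 in cultured cells from 332 to between 165 and 1442 and from 6 to between 0 and 8. For bulk against sorted cells they moved from 1785 to between 983 and 6563, for sorted against cultured cells from 3107 to 8750 at most, and for the differences of effects from 330 to between 136 and 518 and from 16 to between 6 and 130. TPM carry no counts, so counting error could not be separated from the spread between libraries.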

Other observations

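Of other immunosuppressive enzymes and ligands, several were found in bulk tumors and hardly in sorted tumor cells. Of 15 such genes 8 were tested between bulk tumors and sorted tumor cells, and 5 were called higher in bulk tumors, against 9.26% of all genes. They were Entpd1, the ectoenzyme CD39 (3.24, limma adjusted p = 5.31e-08), Nos2 (2.44, 3.36e-09), the ligand Cd200 (2.21, 1.59e-08), its receptor Cd200r1 (1.98, 5.27e-09) and Tgfb1 (0.96, 2.16e-06). The first 4 had at most 0.86 TPM in any sorted library, passed the filter through bulk tumors alone and therefore had to differ, so that this count is a description. Of the interferon list 10 of 17 genes tested were called higher in bulk tumors, against 9.26% of all genes, and 6 of 17 higher in sorted than in cultured cells, against 14.6%. Among the 10, Cxcl9 had a mean of only 0.412 TPM in sorted cells against 26.9 TPM in bulk tumors, passed the filter through bulk tumors and therefore had to differ, so that the count of 10 is a description too.

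Among regulators of T cell exhaustion, the nuclear receptors Nr4a1, Nr4a2 and Nr4a3 were highest in sorted tumor cells. Against cultured cells they were higher by 3.87, 2.72 and 3.68 on the log2 scale (limma adjusted p = 1.91e-11, 1.8e-07 and 2.38e-12), and bulk tumors had less than sorted cells, by −2.12, −1.73 and −1.09 (limma adjusted p = 1.88e-09, 2.13e-05 and 6.95e-08). Sorted cells had been through a collagenase digest and magnetic depletion and cultured cells had not, so that the procedure and growth in the tumor cannot be told apart in these values.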
